A study of Bos taurus with 8 samples.

Results

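The transcripts examined here encode the enzymes that place and remove N6-methyladenosine (m6A), the methyl mark on internal adenosines of messenger RNA. The list was METTL3, METTL14, WTAP, VIRMA, RBM15, RBM15B, ZC3H13, CBLL1, FTO and ALKBH5, and all 10 were present among the 16606 genes of the deposited table. They were measured by RNA sequencing in 8 libraries from bovine embryos produced in vitro, each made from a pool of 5 embryos. The 4 groups of 2 libraries were control embryos and RPL12 A148G-edited embryos at the 4-cell stage, and the same at the 8-cell stage. RPL12 encodes a protein of the large ribosomal subunit, and the labels do not say from where the position of the A148G edit is counted. Oocytes came from ovaries collected at an abattoir and, per the labels' protocols, were fertilised in vitro with Holstein semen, and zygotes to be edited received PEmax and a guide RNA by injection into the cytoplasm. PEmax is a prime editor, which joins a nicking form of Cas9 to a reverse transcriptase, although the sample titles speak of base editing. Whether control embryos were injected, what share of alleles was edited and whether cumulus cells were removed is not given in the sources used here. The 4-cell samples carry the source name oocytes, and their titles were followed.

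m6A is written in the nucleus by a large complex. METTL3 is the subunit that binds the methyl donor S-adenosylmethionine and catalyses the transfer, and METTL14 is its catalytically inactive partner that helps to hold the RNA. WTAP, VIRMA, RBM15 or RBM15B, ZC3H13 and CBLL1 form the associated part that places the core in the nucleus and guides it to its targets. FTO and ALKBH5 are iron-dependent demethylases that take the mark off again. In oocytes and early embryos the mark is known for its part in the storage and the clearance of maternal transcripts.

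The deposited values are CPM, reads scaled to the size of the library, so that each value is relative to a library and not an amount per embryo. The columns sum to between 992528 and 1007024, so the library size used as the divisor was not the plain total of the listed genes. A fold change is given on the log2(CPM + 1) scale, from limma fitted to all 8 libraries and the 12129 genes whose mean reached 1 CPM, and a gene was called at a Benjamini-Hochberg adjusted p-value under 0.05 over all those genes. Each of the 10 transcripts passed that filter. The libraries held 33527531 to 35122409 reads, and the listed transcripts had between 326 and 7280 reads in a library. RPL12 itself stood at 96.3 to 174 CPM in the control and at 11.9 to 33.6 CPM in the edited libraries. With 2 pools per group, p-values measure only the spread between pools of a group. limma took 1 spread per gene over all 4 groups and moderated it by a trend over all tested genes. A gene's standard error was therefore the same at both stages, and a p-value at one stage also rests on pools of the other.

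At the 4-cell stage the writers and erasers moved in both directions between edited and control embryos. METTL14, VIRMA, RBM15 and CBLL1 rose, METTL3 and FTO fell, and WTAP, RBM15B, ZC3H13 and ALKBH5 were not called. Thus 6 of 10 were called, where 44.7% of all tested genes were. The 4 calls higher stand beside a background of 18.9%, and the 2 calls lower beside one of 25.8%. Over the 10 genes the median log2 fold change was 0.57, from -1.15 for METTL3 to 1.17 for RBM15, and the median of all tested genes was -0.02. In 8-cell embryos CBLL1 alone of the 10 was called, higher in edited embryos, where 15.6% of all tested genes were called, 1.08% higher and 14.5% lower. The median of the 10 was -0.12 there, and that of all tested genes was 0.00458. By the weaker rule that both edited libraries lay on one side of both controls, 8 of the 10 genes stood apart at the 4-cell stage, 6 above and 2 below, beside 71.0%, 33.5% and 37.5% of all tested genes. By the same rule 7 stood apart at the 8-cell stage, 4 above and 3 below, beside 60.4%, 27.7% and 32.7%.

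**Figure D1:**
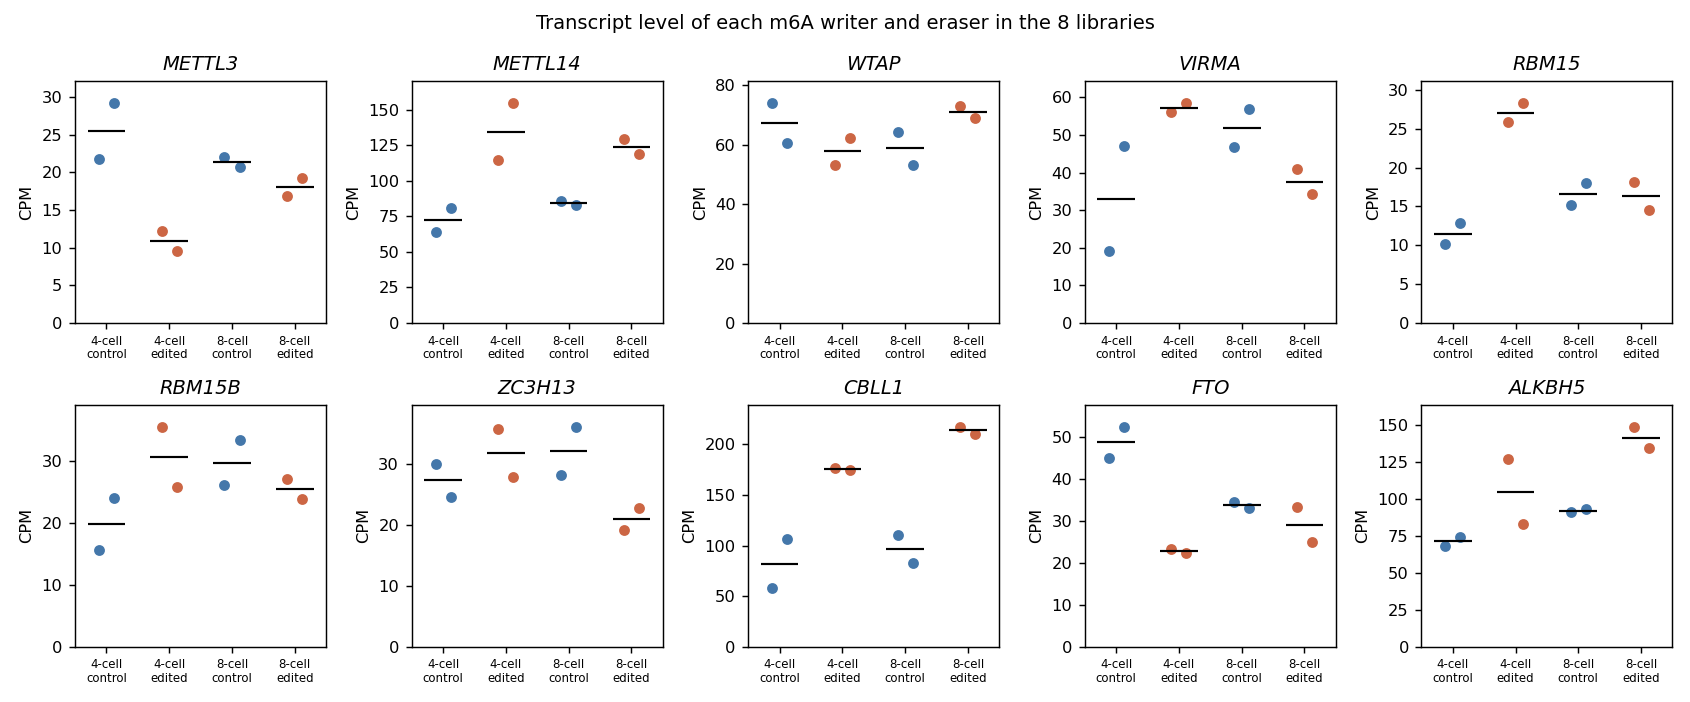
Transcript level of each of the 10 genes in CPM (vertical axes, linear, from 0) in the 8 libraries, grouped by stage and condition, with control libraries in blue, edited libraries in orange and a bar at each group's mean. METTL3 lies at 9.53 and 12.2 CPM in the 4-cell edited libraries, below all others, and CBLL1 lies above 174 CPM in every edited library and below 111 CPM in every control library.

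Transcripts of the core partners METTL3 and METTL14 were called in opposite directions by limma at the 4-cell stage. METTL3 was found at 21.8 and 29.2 CPM in the 4-cell control libraries and at 12.2 and 9.53 CPM in the 4-cell edited ones. The edited libraries were thus both below the controls, with a log2 fold change of -1.15 (standard error 0.305, limma adjusted p-value 0.00599). METTL3 in 8-cell embryos stood at 22.1 and 20.7 CPM in control and at 16.9 and 19.2 CPM in edited embryos. These groups did not overlap, but the log2 fold change of -0.24 was not called (95% interval -0.88 to 0.41, limma adjusted p-value 0.668). The 4-cell call for METTL3 was lost without the second 4-cell control library, where the log2 fold change was -0.95 and the limma adjusted p-value 0.0520.

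METTL14 went the other way. It was found at 63.7 and 80.6 CPM in 4-cell control libraries and at 115 and 155 CPM in 4-cell edited libraries. Both edited libraries lay above both controls (log2 fold change 0.88, standard error 0.236, limma adjusted p-value 0.00636). The 8-cell control libraries held 86.1 and 82.9 CPM and the edited ones 129 and 119 CPM, again without overlap. There the log2 fold change of 0.55 was not called (95% interval 0.05 to 1.05, limma adjusted p-value 0.146). The METTL14 value at the 4-cell stage was 0.67 without the second edited library, with a limma adjusted p-value of 0.0670.

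Because both partners are measured in the same library, their ratio was also taken within each library. Transcript length cancels when a ratio is compared between libraries, but the ratio is one of reads and not of molecules. METTL14 over METTL3 was 2.93 and 2.76 in 4-cell control libraries and 9.40 and 16.2 in 4-cell edited libraries. In 8-cell embryos it was 3.89 and 4.01 in control and 7.63 and 6.19 in edited libraries. Every edited library was above every control library, and the edited 4-cell libraries were the highest. That separation was fixed by the single genes, as METTL14 was higher and METTL3 lower in every edited library than in every control library. In 2 further ratios, CBLL1 over METTL3 was 2.67 to 5.01 in control and 10.9 to 18.3 in edited libraries, while RBM15 over RBM15B overlapped, at 0.539 to 0.647 in control and 0.613 to 1.101 in edited libraries. CBLL1 was also higher in every edited library than in every control library, which fixed its ratio to METTL3 in the same way. The ratios were formed after the values had been seen and were given no test.

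**Figure D2:**
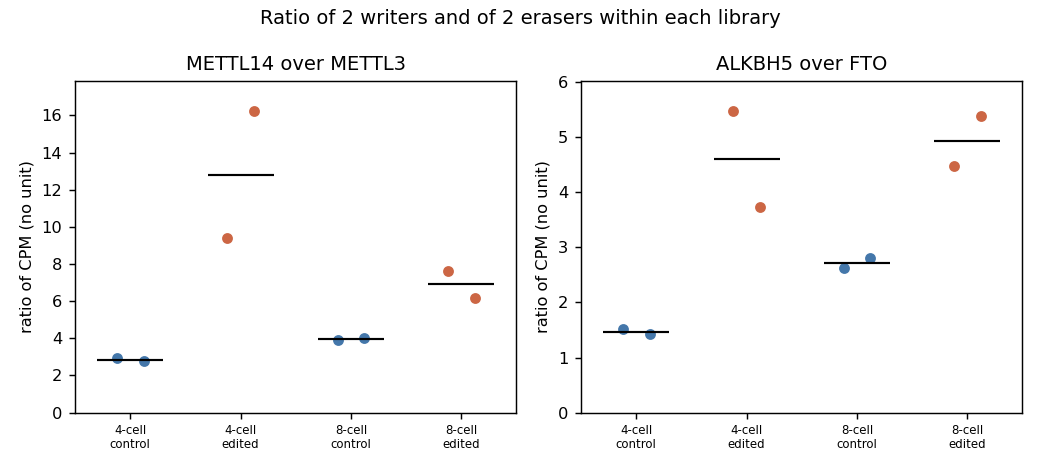
Ratio of CPM within each library (vertical axes, linear, from 0, no unit) for METTL14 over METTL3 and for ALKBH5 over FTO, with control libraries in blue, edited libraries in orange and a bar at each group's mean. Control libraries lie between 2.76 and 4.01 in the first panel and edited libraries between 6.19 and 16.2, and the ranges in the second panel are 1.42 to 2.81 and 3.73 to 5.48.

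Of the associated subunits, CBLL1 was called higher at both stages. CBLL1, also called HAKAI, is a RING-finger protein first described as an E3 ubiquitin ligase for E-cadherin. Its transcript stood at 58.1 and 106 CPM in 4-cell control and at 177 and 175 CPM in 4-cell edited libraries (log2 fold change 1.15, standard error 0.269, limma adjusted p-value 0.00261). In 8-cell embryos CBLL1 stood at 111 and 82.3 CPM in control and at 218 and 210.1 CPM in edited libraries (log2 fold change 1.15, standard error 0.269, limma adjusted p-value 0.00636). The groups were far apart at each stage, and the control libraries differed more from one another than the edited ones did. The difference between the effects at the 2 stages was 0.00481 (95% interval -0.80 to 0.81). CBLL1 lay at the 99.2 percentile of the 8-cell log2 fold changes of all tested genes and at the 91.3 percentile of the 4-cell ones. Without the first 4-cell control library the 4-cell value was 0.72, with a limma adjusted p-value of 0.0370. The 8-cell call was lost without the second control library (0.94, limma adjusted p-value 0.0892) and without the first edited library (1.13, limma adjusted p-value 0.0514).

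RBM15 and RBM15B are paralogous RNA-binding proteins that bring the complex to its sites. RBM15 stood at 10.1 and 12.9 CPM in 4-cell control and at 25.9 and 28.3 CPM in 4-cell edited libraries. That difference was among the largest of the 10 (log2 fold change 1.17, standard error 0.307, limma adjusted p-value 0.00546), and it was called with each library left out in turn. At the 8-cell stage the groups overlapped, with 15.2 and 18.1 CPM in control and 18.2 and 14.6 CPM in edited libraries. The log2 fold change there was -0.02 (95% interval -0.67 to 0.63, limma adjusted p-value 0.970), and its sign changed under other scalings. RBM15B stood at 15.6 and 24.0 CPM in 4-cell control and at 35.5 and 25.7 CPM in 4-cell edited libraries, apart but not called (log2 fold change 0.62, limma adjusted p-value 0.115). RBM15B in 8-cell embryos stood at 26.0 and 33.3 CPM in control and at 27.0 and 23.8 CPM in edited libraries, with overlap. Without the second 4-cell control library RBM15B was called higher at the 4-cell stage (0.91, limma adjusted p-value 0.0449).

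VIRMA is the large scaffold of the complex. Its 4-cell control libraries were far apart, at 19.1 and 47.0 CPM, and the 4-cell edited libraries lay above both, at 56.1 and 58.5 CPM. This gave a log2 fold change of 0.91 (standard error 0.336, limma adjusted p-value 0.0375). The call rested on the first control library: without that library VIRMA had a log2 fold change of 0.28 and a limma adjusted p-value 0.511. It was also lost without either 4-cell edited library (limma adjusted p-values 0.125 and 0.140), with edgeR (0.0641), with DESeq2 (0.0578) and without a filter on low values (0.0915). Among 8-cell libraries the order was the reverse, with 46.8 and 56.9 CPM in control and 40.8 and 34.2 CPM in edited libraries, and the log2 fold change of -0.46 was not called (limma adjusted p-value 0.424).

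WTAP, the adaptor that links the core to the other subunits, varied least of the 10. It ranged from 53.1 to 74.1 CPM over the 8 libraries. Both edited libraries lay above both controls at the 8-cell stage, at 73.2 and 69.0 CPM against 64.4 and 53.1 CPM. Its log2 fold changes were -0.22 at the 4-cell stage (95% interval -0.73 to 0.30) and 0.28 at the 8-cell stage (95% interval -0.24 to 0.79), with limma adjusted p-values of 0.493 and 0.505. ZC3H13, a zinc finger protein that joins WTAP to the RBM15 proteins, stood at 30.0 and 24.7 CPM in 4-cell control and at 35.7 and 27.8 CPM in 4-cell edited libraries, with overlap (log2 fold change 0.21, limma adjusted p-value 0.592). In 8-cell embryos ZC3H13 was at 28.2 and 36.2 CPM in control and at 19.1 and 22.8 CPM in edited libraries. Those groups did not overlap, and the log2 fold change of -0.59 was not called (95% interval -1.20 to 0.02, limma adjusted p-value 0.200).

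**Figure D3:**
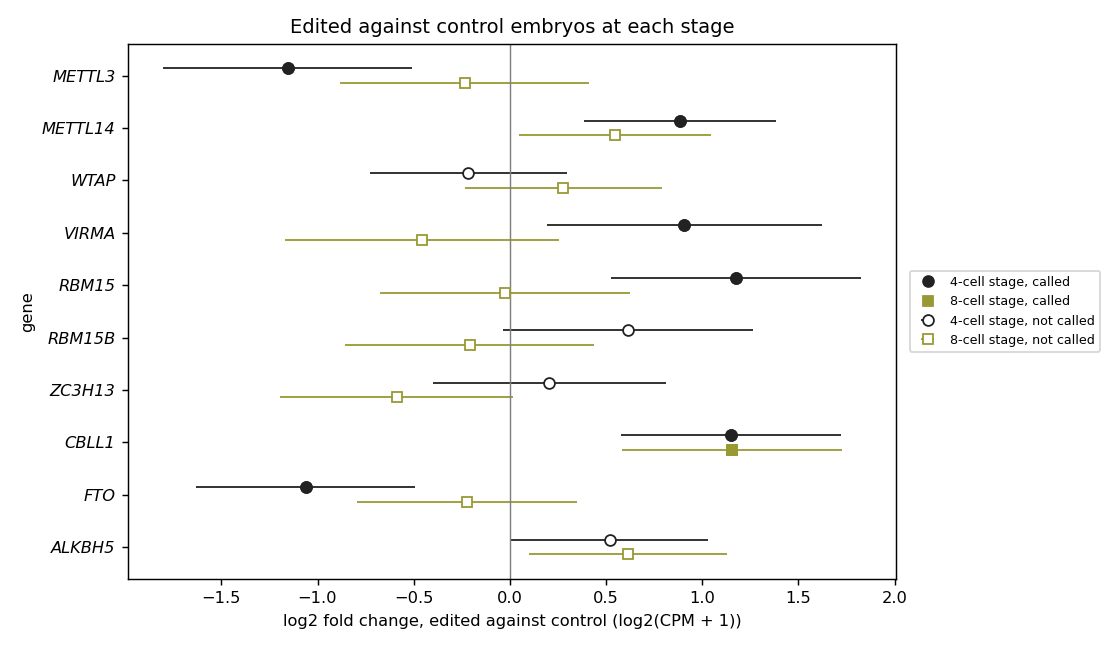
Log2 fold change of edited against control embryos on the log2(CPM + 1) scale (horizontal axis) for each of the 10 genes (vertical axis), with circles for the 4-cell and squares for the 8-cell stage, bars for the 95% interval from limma and filled symbols for called genes. At the 4-cell stage 6 symbols are filled, from -1.15 for METTL3 to 1.17 for RBM15, and at the 8-cell stage that of CBLL1 at 1.15 is filled.

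Of the 2 erasers, FTO was called at the 4-cell stage and ALKBH5 was not. FTO, which acts on m6A and on the related mark next to the cap, stood at 44.8 and 52.3 CPM in 4-cell control and at 23.1 and 22.2 CPM in 4-cell edited libraries. Both edited libraries were below both controls (log2 fold change -1.06, standard error 0.269, limma adjusted p-value 0.00451), and the call held with each library left out in turn. FTO in 8-cell embryos stood at 34.5 and 33.0 CPM in control and at 33.2 and 24.9 CPM in edited libraries. These values overlapped (log2 fold change -0.22, 95% interval -0.79 to 0.35, limma adjusted p-value 0.642).

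ALKBH5, which is required for male fertility in mice, stood at 68.3 and 74.4 CPM in 4-cell control and at 127 and 82.9 CPM in 4-cell edited libraries. The edited libraries were above the controls but differed widely (log2 fold change 0.52, 95% interval 0.00418 to 1.03, limma adjusted p-value 0.0947). The call depended on the test and on the second edited library: edgeR gave an adjusted p-value of 0.0469, limma after TMM scaling 0.0424 and limma without the second edited library 0.0248. ALKBH5 in 8-cell embryos was at 90.7 and 92.8 CPM in control and at 149 and 134 CPM in edited libraries. Here the groups were well apart, and the log2 fold change of 0.62 had a limma adjusted p-value of 0.107, or 0.0343 when only those 4 libraries were fitted. The 4-cell libraries had an ALKBH5 over FTO ratio of 1.52 and 1.42 in control and 5.48 and 3.73 in edited embryos, and the 8-cell libraries one of 2.63 and 2.81 in control and 4.47 and 5.38 in edited embryos. As for the writer pair, no edited library fell within the control range, and no test was made.

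When the effect of editing was averaged over both stages, METTL14 (log2 fold change 0.72, standard error 0.167, limma adjusted p-value 0.00252), RBM15 (0.58, adjusted 0.0407), CBLL1 (1.15, adjusted 0.000145) and ALKBH5 (0.57, adjusted 0.0133) were called higher. METTL3 (-0.69, adjusted 0.0156) and FTO (-0.64, adjusted 0.0120) were called lower. These 6 of 10 stand beside 44.8% of all tested genes, the 4 calls higher beside 17.6% and the 2 calls lower beside 27.2%. METTL14 and CBLL1 remained called with each library left out. The count of called genes was 3 without the first 8-cell edited library, where METTL3 (adjusted 0.0616), RBM15 (adjusted 0.150) and ALKBH5 (adjusted 0.0610) were lost by limma. RBM15 was lost in 7 of the 8 fits without a library, and in the fit blocked by replicate number its limma adjusted p-value was 0.0581. ALKBH5 was also lost without the first 4-cell edited library (0.42, adjusted 0.0635), METTL3 without the second 4-cell control library (-0.59, adjusted 0.0567) and FTO without the second 8-cell edited library (-0.54, adjusted 0.0727). Over all 8 libraries, 3 of the 10 genes had every edited library on one side of every control library, METTL14 and CBLL1 above and METTL3 below. Of all tested genes 29.6% had no overlap, 9.98% above and 19.6% below.

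**Figure D4:**
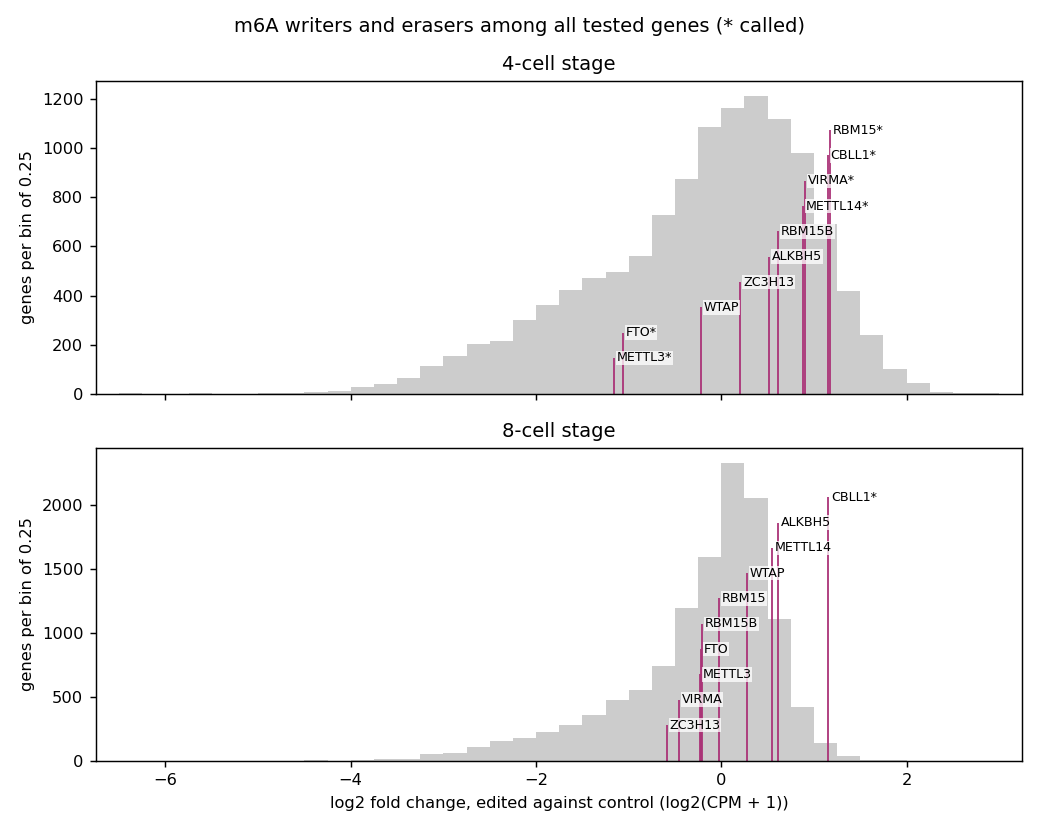
Number of tested genes per bin of 0.25 (vertical axis) by log2 fold change of edited against control embryos (horizontal axis, log2(CPM + 1) scale) at the 4-cell stage (upper panel) and the 8-cell stage (lower panel), with lines at the values of the 10 genes and a star at those called; the height of a line has no meaning. At the 4-cell stage the 10 genes lie from -1.15 to 1.17, within the bulk of the 12129 genes, and at the 8-cell stage CBLL1 lies at the 99.2 percentile.

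Whether the effect of editing differed between stages was tested as the 8-cell effect minus the 4-cell effect. None of the 10 genes was called by limma, edgeR or DESeq2, and limma called 3.96% of all tested genes. Of all 12129 tested genes 2800 had an unadjusted limma p-value under 0.05, and so had 4 of the 10. The differences were -1.36 for VIRMA (95% interval -2.37 to -0.36, limma adjusted p-value 0.104), -1.20 for RBM15 (-2.12 to -0.28, adjusted 0.115), 0.92 for METTL3 (0.00323 to 1.84, adjusted 0.215) and 0.84 for FTO (0.03 to 1.65, adjusted 0.200). The other 6 lay between -0.83 for RBM15B and 0.49 for WTAP. VIRMA was called without the second 4-cell control library (-1.99, limma adjusted p-value 0.00468). Thus a call at the 4-cell stage and none at the 8-cell stage does not by itself show that METTL3, METTL14, VIRMA, RBM15 or FTO responded differently at the 2 stages.

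Stage was then compared within each condition. Between the 4-cell and the 8-cell stage none of the 10 genes was called in control embryos by limma, edgeR or DESeq2. There 9.02% of all tested genes were called by limma. VIRMA alone of the 10 had an unadjusted limma p-value under 0.05, beside 3568 of the 12129 tested genes. In edited embryos none was called by the same 3 tools, where limma called 5.18% of all tested genes. There METTL3 stood at 18.1 ± 1.62 CPM (SD, n = 2) at the 8-cell and 10.9 ± 1.87 CPM (SD, n = 2) at the 4-cell stage (log2 fold change 0.69, limma adjusted p-value 0.203). RBM15 stood at 16.4 ± 2.55 and 27.1 ± 1.74 CPM (log2 fold change -0.70, limma adjusted p-value 0.199). METTL3 and RBM15 were the 2 with an unadjusted limma p-value under 0.05, beside 2604 of the 12129 tested genes. Without the second 4-cell control library VIRMA was called higher at the 8-cell stage in controls (1.39, limma adjusted p-value 0.00676). The comparisons of stage and of editing share libraries, so their calls are not independent.

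Levels of the 10 genes varied together across the 8 libraries in part, which is given as a description because the libraries share group and depth. The highest Pearson correlations of log2(CPM + 1) over the 8 libraries were 0.91 between METTL14 and CBLL1, 0.88 between VIRMA and RBM15B, and 0.86 between METTL3 and FTO. The most negative was -0.87, between METTL3 and RBM15. Among 7405 genes outside the m6A lists with a mean of at least 10 CPM, those most like METTL3 over the 8 libraries were SEPHS1 (r = 0.98), TTI2 (0.97) and PSMD11 (0.96). Those most like METTL14 were NMD3 (0.99), LOC524181 (0.98) and MYLIP (0.98). For FTO they were MMACHC (0.99), RBFOX2 (0.98) and SARS1 (0.98), and for ALKBH5 SLC1A5 (0.98), CSNK1G1 (0.98) and BUD13 (0.98). Of the 7405 genes, 61 had an r over 0.90 with METTL3, 339 with METTL14, 239 with FTO and 192 with ALKBH5.

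Other enzymes of RNA adenosine methylation and of the methyl donor were taken as a list of 12 genes, all tested. In 4-cell embryos limma called 3 higher and 2 lower with editing, beside backgrounds of 18.9% and 25.8%. By contrast edgeR called 3 higher and 0 lower, beside 2478 and 2694 of its 14629 genes. DESeq2 called 3 higher and 1 lower, beside 2451 and 3154 of 16606 genes. For the 8-cell stage limma, edgeR and DESeq2 each called 0 of the 12, beside 15.6%, 11.6% and 13.5% of all genes. Of the 12, 2, 2 and 3 had an unadjusted p-value under 0.05, which limma gave to 3291 of 12129 genes. MAT2B, the regulatory subunit of the S-adenosylmethionine synthase, held 906 ± 57.4 CPM in 4-cell edited embryos and 496 ± 125 CPM in their controls (SD, n = 2, log2 fold change 0.89, limma adjusted p-value 0.00430). AHCYL2, related to S-adenosylhomocysteine hydrolase, stood at 91.3 ± 5.96 against 45.0 ± 27.4 CPM (1.14, limma adjusted p-value 0.00870). AHCY, the hydrolase itself, which removes the product inhibitor of methyltransferases, stood at 14.7 ± 5.19 against 27.1 ± 0.825 CPM (-0.88, limma adjusted p-value 0.0316). The smallest 8-cell p-values among them were those of MAT2B (0.62, limma adjusted p-value 0.0757), MAT2A, the catalytic subunit of the synthase (0.67, adjusted 0.0811), and METTL16, a methyltransferase of the U6 small nuclear RNA and of the MAT2A transcript (0.49, adjusted 0.238). Averaged over stages limma called 3 of the 12 higher and 1 lower, beside 17.6% and 27.2% of all tested genes. There edgeR called 3 of the 12 higher and 0 lower, beside 2394 and 3182 of its 14629 genes. DESeq2 called 3 higher and 1 lower for that average, beside 2426 and 3473 of 16606 genes. The smallest p-values were those of MAT2B (0.76, limma adjusted p-value 0.00112), AHCYL2 (0.80, adjusted 0.00917) and METTL16 (0.59, adjusted 0.0142). Of the 15 m6A readers listed 13 were tested. In 4-cell embryos limma called 4 of them higher and 3 lower, beside 18.9% and 25.8% of all tested genes. There edgeR called 5 and 3, beside 2478 and 2694 of its 14629 genes, and DESeq2 5 and 3, beside 2451 and 3154 of 16606. In 8-cell embryos limma called 1 higher and 3 lower, beside 1.08% and 14.5%, and edgeR called 0 and 2, beside 96 and 1599 of 14629. DESeq2 called 1 and 4 of the readers there, beside 243 and 2005 of 16606. With the marker covariate described next, limma called 0 of the 12 other enzymes and 0 of the 13 readers at either stage, with 3 and 3 at an unadjusted p-value under 0.05 at the 4-cell stage and 1 and 2 at the 8-cell stage.

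Markers of other cells differed between the same groups. Of 20 cumulus and granulosa markers, all in the table, 17 were tested, and 11 were called lower and 2 higher in edited embryos at the 4-cell stage, and 4 were called lower at the 8-cell stage. The shares of all tested genes were 25.8% lower and 18.9% higher at the 4-cell stage and 14.5% lower at the 8-cell stage. Their summed level was 1409 to 1802 CPM in 4-cell control, 460.5 to 508 CPM in 4-cell edited, 628 to 921 CPM in 8-cell control and 463 to 492 CPM in 8-cell edited libraries. Genes of steroid synthesis in follicular cells were among the highest in 4-cell controls, with HSD3B1 at 283 and 283 CPM against 5.87 and 17.8 CPM in 4-cell edited libraries and CYP11A1 at 227 and 201 CPM against 3.33 and 14.5 CPM. FST, which encodes follistatin, stood at 177 and 101.2 CPM against 5.26 and 2.87 CPM. Other members of the list fell less or did not fall. STAR, also of steroid synthesis, was lower by less, at 159 and 193 CPM against 127 and 126 CPM. CYP19A1 was low and overlapped, at 0.898 and 1.82 CPM against 1.65 and 2.25 CPM. HAS2 was higher in the edited libraries, at 24.3 and 55.4 CPM against 132 and 124 CPM. So was GREM1, at 3.39 and 3.34 CPM against 8.42 and 7.93 CPM. LHCGR and FOXL2 were the lowest of the list, at most 0.06 and 0.46 CPM in any library. Of the 7 fibroblast and stroma markers 6 were called lower at each stage, and their sum was 3167 to 6524 CPM in 4-cell control, 1352 to 1980.3 CPM in 4-cell edited, 2643 to 3225 CPM in 8-cell control and 150.3 to 798 CPM in 8-cell edited libraries. LUM, which encodes the matrix protein lumican, made up most of these sums, with 2878 and 5965 CPM in 4-cell control and 1282 and 1897 CPM in 4-cell edited libraries. Of the 13 oocyte and early embryo markers tested 6 were called higher and 1 lower at the 4-cell stage, with 1 called higher at the 8-cell stage. Their sum was 18254 to 23747 CPM in 4-cell control libraries, below the 41861 to 50965 CPM of the 4-cell edited, the 34231 to 46471 CPM of the 8-cell control and the 47856 to 51128 CPM of the 8-cell edited libraries. BTG4, a factor in maternal transcript clearance, made up most of that sum, with 12016 and 14925 CPM in 4-cell control and 28841 and 37563 CPM in 4-cell edited libraries. Not all members of that list rose. H1-8 stood at 768 and 751 CPM in 4-cell control and at 622 and 356 CPM in 4-cell edited libraries. ZP4 overlapped, at 1082 and 1491 CPM against 1022 and 1261 CPM. Of 8 blood and immune markers 2 were tested, and 1 was called higher at the 8-cell stage. The 4 present summed to 7.04 and 9.46 CPM in 8-cell control and to 17.4 and 15.6 CPM in 8-cell edited libraries. In pooled embryos, fewer cells of a type and less RNA per cell cannot be told apart. With the mean level of the 17 cumulus and granulosa markers as a covariate, limma called 0 of the 10 writers and erasers at either stage, with 1 at an unadjusted p-value under 0.05 at the 4-cell stage and 0 at the 8-cell stage, and it called 2 and 56 of all tested genes. With that covariate the 4-cell log2 fold changes were -1.54 for METTL3 (standard error 0.819, adjusted p-value 0.450), 1.30 for METTL14 (standard error 0.627, adjusted p-value 0.398), 0.82 for CBLL1 (standard error 0.682, adjusted p-value 0.665) and -0.91 for FTO (standard error 0.731, adjusted p-value 0.651) by limma. With it no sign changed among the 10 at the 4-cell stage, and the standard errors were 2.43 to 2.72 times those without it. Beyond that fit, the part of these other cells in the differences of the 10 genes was not tested.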

How the data were processed

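Per the submitters' processing notes, which give no role or order, Trim Galore 0.6.7, HISAT2 2.2.1 and featureCounts 2.0.1 were used. The genome build and annotation are not given in the sources used here, so no coordinates are printed. SMART-Seq amplification of polyadenylated RNA and Nextera XT tagmentation gave the libraries, per the labels' protocols. The deposited values are CPM computed by the authors, although the table is named for raw counts. Each of the 8 libraries has a step of 0.0286 to 0.0300 CPM worth 1 read, and 100% of values above 0 were whole multiples of it within 0.05 reads, which gave the reads per gene. The other 4 columns match no sample given here and were not used.

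limma 3.58.1 (R 4.3.3) was fitted with an intensity trend to log2(CPM + 1), with 1 mean per group, for the 12129 genes whose mean reached 1 CPM. edgeR 4.0.16 (quasi-likelihood, TMM, 14629 genes) and DESeq2 1.42.0 on the recovered reads were alternatives, edgeR calling 5172 genes in 4-cell and 1695 in 8-cell embryos, as were pseudocounts of 0.1 and 5 CPM, no filter, TMM scaling, the compared libraries alone, the replicate number as a block, a marker covariate and leaving out each library. With 1 library left in a group, it was taken to vary like the others. All 10 listed genes were named, and of the other enzymes the 3 with the smallest p-values in each comparison of editing. Likeness was ranked by Pearson's r. The members and lists were chosen with earlier results of these data known. All 10 symbols matched protein-coding genes of RefSeq's ARS-UCD2.0 table. No sequence of these genes was used here.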

Additional observations from a re-analysis of the deposited data

Results flagged for a closer look

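VIRMA had both edited libraries above both controls at the 4-cell stage, where it was called, and below both at the 8-cell stage, where the log2 fold change of -0.46 was not called (95% interval -1.17 to 0.26, limma adjusted p-value 0.424) and was 0.11 with the marker covariate. The 8-cell effect minus the 4-cell effect was -1.36 on the log2 scale (SE 0.475), with a limma p-value of 0.0112 and an adjusted p-value of 0.104, so the difference was not called. The value was -0.73 without the first 4-cell control library, which held 19.1 CPM, and -1.99 without the second, which held 47.0 CPM.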

How the results depend on the processing

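For the 10 genes, 1060 log2 fold changes were refitted under other settings. Of the values called at first, 192 stayed called with the same sign, 36 lost the call and 0 changed sign. Of those not called, 803 stayed so with the same sign, 8 became called and 21 changed sign. In part of these refits the log2 fold change could not move, only its standard error and p-value. These were the fits without a filter, with the compared libraries alone, with a replicate block, or without a library outside the comparison. A kept sign in those fits was fixed in advance. With the marker covariate the number of the 10 genes called was 0 at the 4-cell stage, 0 at the 8-cell stage and 0 for the average, against 6, 1 and 6. That covariate differed between the groups compared and cannot be told apart from editing. At the 8-cell stage 2 were called when only the libraries compared were fitted. Without single libraries the number called ranged from 5 to 6 at the 4-cell stage, 0 to 1 at the 8-cell stage, 3 to 6 for the average, 0 to 1 for the difference between stages and 0 to 1 between stages in controls. Sign changes of values not called were as follows. RBM15 at the 8-cell stage went to 0.022 with TMM scaling, 0.022 with edgeR, 0.021 with DESeq2, 0.43 with the covariate and -0.18 to 0.13 without single libraries. VIRMA at the 8-cell stage went to 0.11 with the covariate, and its average to between -0.088 and 0.54 without single libraries. The average for WTAP went to -0.11 with the covariate and to between -0.040 and 0.10 without single libraries. The difference between stages for CBLL1 went to -0.035 with TMM scaling, -0.037 with edgeR and between -0.42 and 0.43 without single libraries, and that for ALKBH5 to between -0.21 and 0.40. CBLL1 between stages in controls ranged from -0.15 to 0.71, and METTL14 between stages in edited embryos, without single libraries as well, from -0.32 to 0.11. The cause was not tested.

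The number of all tested genes called ranged over the settings from 2 to 5746 at the 4-cell stage (5419 at first), 56 to 2248 at the 8-cell stage (1895), 4 to 5899 for the average (5437), 0 to 1396 for the difference between stages (480), 1 to 2114 between stages in controls (1094) and 7 to 1286 in edited embryos (628). Titles number the libraries of each group 1 and 2, and the column names give the letter D to every library 2, C to library 1 of both edited groups and A or B to library 1 of the control groups. What numbers and letters stand for is not given in the sources used here. Same-numbered libraries had deviations that correlated at 0.11 at the 4-cell stage, -0.09 at the 8-cell stage, -0.30 in controls and 0.02 in edited embryos, and the numbers were not taken to pair the libraries. With the replicate block 6, 1, 5, 0, 0 and 0 of the 10 genes were called in the 6 comparisons, against 6, 1, 6, 0, 0 and 0, and the all-gene count at the 4-cell stage was 5224. With both 8-cell control libraries exchanging numbers, an alternative added after seeing the data, 6, 1, 6, 0, 0 and 0 were called. Intervals cover the spread between pools within groups, taken as 1 spread per gene over all groups. Reads of amplified cDNA carry no molecular identifiers, so they do not count independent molecules.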
